A study of Mus musculus with 134 samples.

Results

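The Dlk1-Dio3 locus is an imprinted cluster of genes on mouse chromosome 12. The 6 genes described here were chosen by name from its protein-coding and long non-coding genes, and they are 6 of the 25209 genes in the count files. Dlk1, Rtl1 and Dio3 are its protein-coding genes. Meg3, Rian and Mirg are its long non-coding RNAs. The genes were followed in 54 bulk expression libraries and in 752 single cells from a study that developed SET-seq, an assay that reads the epigenome and the transcriptome of the same cells.

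All samples were mouse embryonic stem cells (mESCs) of strain 129/Ola, labelled E14 and named ES-E14TG2a in the study, grown without feeder cells on gelatin with serum and LIF. The 54 libraries fell into 27 conditions with 2 libraries each. In 14 in vitro conditions, hybrids of mRNA and cDNA made from purified total RNA with an oligo-dT primer were tagmented by the transposase Tn5. The temperature series was incubated at 16 °C or 37 °C for 5, 10, 15 or 30 min. The Tn5 series used 25, 50 or 100 ng/µl of Tn5, and the RNA series used 300 ng, 3 ng or 30 pg of RNA. In SET-seq, the cytoplasmic RNA of lysed cells was used instead, from 10, 100, 1000 or 10000 cells without antibody. Co-assay libraries came from the RNA of 100, 1000 or 10000 cells whose nuclei were stained for H3K4me3 or H3K27me3. A pair of ligation-based libraries was made from poly-A RNA as conventional RNA-seq. Aebp2 knockout (KO) cells were made by the CRISPR/Cas9 method as clones KO1 and KO2, from different guides. Each clone has 2 H3K27me3 co-assay libraries, so a difference between the clones cannot be told apart from a difference between single cell lines. The labels do not give the number of KO cells. The single cells came from 16 experiments, 10 with H3K27me3 and 6 with H3K4me3, in which mESCs lay beside Wnt3a beads for 12 h. Daughter cells were taken as proximal or distal to the bead.

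Total counts ranged from 235040 to 21520982 per library, and the precursor rRNA gene Rn45s took 1.54% to 84.6% of them. Levels are therefore given as CPM, the counts scaled to a common total with Rn45s left out. The labelled line E14TG2a is known as an Hprt-deficient subline, and the libraries differed in Hprt. Hprt lay between 0 and 1.29 CPM in the 28 in vitro libraries and between 0 and 2.14 CPM in the 4 KO libraries, but between 66.2 and 485 CPM in all other bulk libraries, which goes against the named line for those libraries. Each result that sets the first kind of library against the second is given with this in view, and its part in the results was not tested. The summed level of 5 ES cell markers (Pou5f1, Nanog, Sox2, Zfp42 and Esrrb) was 1117 to 4452 CPM over all libraries. The 5 fibroblast markers summed to at most 29.0 CPM, with Dcn at 0 in 6 of the 9 sets of libraries. They were highest in the Tn5 series, at 17.3 to 29.0 CPM with none of the 5 at 0 throughout, against 3.19 to 6.61 CPM at 37 °C. The 4 primitive endoderm markers reached at most 37.1 CPM, the 3 trophectoderm markers at most 35.2 CPM, and the 3 neuron markers Tubb3, Map2 and Stmn2 lay between 311 and 822 CPM. In such libraries, fewer cells with an RNA and less RNA per cell cannot be told apart.

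Imprinted genes are transcribed from the chromosome of only 1 parent. At Dlk1-Dio3 the paternal copy makes the protein-coding genes and the maternal copy makes the non-coding RNAs, under the control of a differentially methylated region between Dlk1 and Meg3. The maternal RNAs are long transcripts in 1 direction that also carry many microRNAs and small nucleolar RNAs. Loss of Meg3 RNA is known as a mark of mESCs and induced stem cells with reduced developmental potential. AEBP2 is an accessory subunit of Polycomb repressive complex 2 (PRC2), which methylates H3K27. The files hold no alleles, so parental origin below is background.

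In the mm9 gene models used for counting, Dlk1 spans chr12:110691033-110701546 on the plus strand. Meg3 follows at chr12:110779206-110809939, Rian at chr12:110842155-110899921 and Mirg at chr12:110973191-110987667, all on the plus strand. Rtl1 lies between Meg3 and Rian on the minus strand, at chr12:110827403-110838540. Dio3 closes the locus at chr12:111517440-111519307 on the plus strand. Exons of Dlk1, Rian and Dio3 shared no base with another gene. Meg3 shared 94 of its 12956 exon bases with the microRNA gene Mir770, and Mirg shared 94 of 1299 with Mir369, Mir410 and Mir412. Rtl1 shared 1719 of 6358 exon bases, or 27.04%, with 8 genes. They are the microRNA genes Mir127, Mir136, Mir431, Mir432, Mir433, Mir434 and Mir3071, and the transcript 6430411K18Rik. Counting did not use the strand and left out reads that fell on several genes. A count of Rtl1 therefore holds reads of either strand from the remaining bases, and none from the shared bases.

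**Figure D1:**
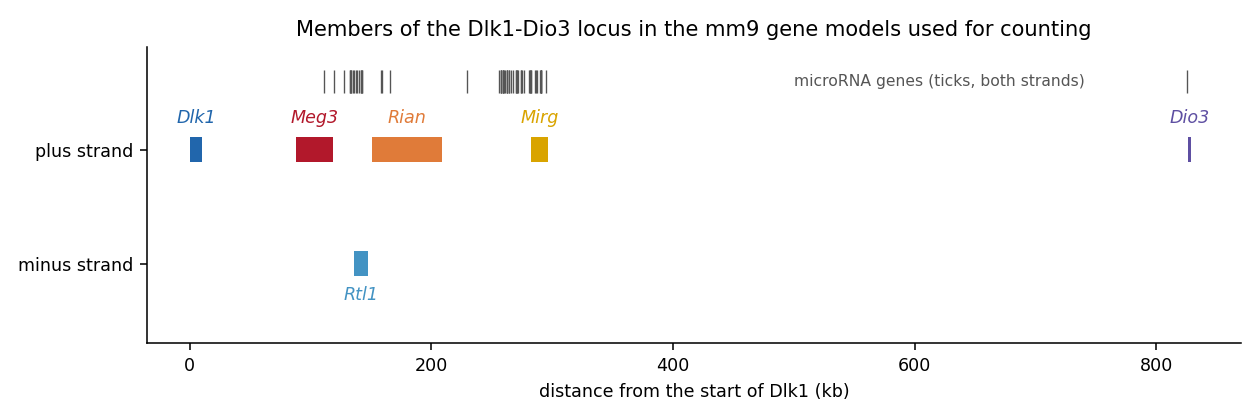
The 6 genes by strand, as bars over the distance in kb from the start of Dlk1, with microRNA genes as ticks above. Rtl1 is the only one of the 6 on the minus strand, and most ticks lie between Meg3 and Mirg.

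RefSeq (GRCm38.p6) lists 113 mature microRNAs for 60 microRNA genes of the locus, with 103 different seeds. The seed, bases 2 to 8, is the part that pairs with targets and is printed in capitals. The following are shown because they lie in counted exons and set which bases of Rtl1, Meg3 and Mirg can give counts. Their mm9 places were found by exact match.
mmu-miR-431-5p: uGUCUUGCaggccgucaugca
mmu-miR-433-3p: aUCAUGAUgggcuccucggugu
mmu-miR-127-3p: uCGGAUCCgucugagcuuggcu
mmu-miR-434-3p: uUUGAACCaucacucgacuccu
mmu-miR-136-5p: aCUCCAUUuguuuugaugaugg
mmu-miR-770-5p: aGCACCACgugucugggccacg
mmu-miR-410-3p: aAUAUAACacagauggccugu
The first 5 are read from the strand opposite to Rtl1, at chr12:110828669-110828689, chr12:110829991-110830012, chr12:110831098-110831119, chr12:110832775-110832796 and chr12:110833541-110833562. With their other arms and miR-432, 11 mature microRNAs lie opposite to Rtl1 exons and so are fully complementary to them. miR-770-5p lies in a Meg3 exon at chr12:110801920-110801941 and miR-410-3p in a Mirg exon at chr12:110981974-110981994, both on the strand of the host. The 13 mature microRNAs of the Rtl1 exons carried 13 different seeds, so no seed group was shared among them. For comparison, these are the stretches of Rtl1, on its own strand, that face miR-127-3p and miR-136-5p, with the bases opposite the seed in capitals.
opposite miR-127-3p: agccaagctcagacGGATCCGa
opposite miR-136-5p: ccatcatcaaaacaAATGGAGt
Few counts fell on the small RNA genes. The 60 microRNA genes between Dlk1 and Dio3 had 500 counts in all 54 libraries together, 39 of them had any count, and the highest was Mir3072 with 103. All genes within Rtl1 exons, Mir127 and Mir136 included, had 0 counts, as had 6430411K18Rik, but reads on bases shared with Rtl1 were left out of counting, so these zeros say nothing of the RNAs. The 7 small nucleolar RNA genes inside Rian had 305 counts in all, of which AF357425 took 136.

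Of the 6 genes, Meg3 gave the most counts, 19835 in 53 of 54 libraries, with a median of 56.1 CPM. Rian had 5725 counts in 52 libraries and a median of 10.4 CPM, and Mirg had 5421 counts in 47 libraries and 10.9 CPM. The protein-coding genes were lower, with 2140 counts and 5.25 CPM for Dio3, 1017 counts and 2.49 CPM for Rtl1, and 549 counts and 0.991 CPM for Dlk1. Genes can be compared only per length. In RPKM, CPM per kilobase of exon, Mirg came first with a median of 8.40. Meg3 followed with 4.33, Rian with 2.91, Dio3 with 2.81, Rtl1 with 0.391 and Dlk1 with 0.206. By these medians over all 54 libraries, 28 of them in vitro, the non-coding RNAs and Dio3 led, and Dlk1 and Rtl1 were near the detection limit of many libraries. The order differed by set. The median RPKM of Dlk1 against Dio3 was 0.644 against 0.144 in SET-seq without antibody and 0.940 against 0.364 with H3K4me3. With H3K27me3 it was 1.85 against 0.393, with Meg3 at 1.26 and Rian at 1.69. In the other sets Dio3 was above Dlk1.

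Meg3, the long RNA at the start of the maternal transcription, was high and even in the Tn5 series. The 6 libraries ranged from 116 to 138 CPM, and their median was 129.6 CPM. With ligation Meg3 was at 101 and 113 CPM. At 16 °C, Meg3 was 46.6 and 46.9 CPM after 5 min, 54.4 and 56.9 after 10 min, 61.7 and 57.5 after 15 min and 64.0 and 76.2 after 30 min, so that each pair lay above the pair of the next shorter time. This order in time was not tested. At 37 °C the 8 libraries ranged from 54.9 to 91.5 CPM around a median of 63.1, with no such order over the 4 times. In the co-assays, Meg3 was 7.20 to 29.7 CPM in the 6 H3K4me3 libraries and 8.97 to 22.8 CPM in the 6 H3K27me3 libraries, against 87.5 and 78.9 CPM in SET-seq of 10000 cells without antibody. With few cells the values scattered: SET-seq of 100 cells gave 31.4 and 121 CPM, and SET-seq of 10 cells gave 22.7 and 0 CPM. Over the 27 conditions, the highest mean, 182 CPM at 30 pg of RNA, rested on libraries of 83.1 and 281 CPM and did not stand apart from the Tn5 series beyond that spread.

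Rian, the RNA that hosts the small nucleolar RNAs, had another order of levels. The ligation-based libraries stood highest with 90.9 and 96.6 CPM, followed by 3 ng of RNA with 54.6 and 50.1 CPM. These 2 neighbours did not overlap. Libraries of the same series with 300 ng of RNA gave 7.21 and 8.95 CPM, below both. At 16 °C Rian went from 25.6 and 24.5 CPM after 5 min to 20.4 and 20.9 after 10 min, 18.1 and 19.6 after 15 min and 10.1 and 14.2 after 30 min, the reverse of the order of Meg3 and likewise not tested. At 37 °C it was 10.3 to 23.9 CPM, in the Tn5 series 7.12 to 13.6 CPM, and in the co-assays 1.55 to 10.8 CPM. The library of 30 pg with 49.6 CPM held 136 counts and its partner with 6.18 CPM held 2, so no level can be set for that condition.

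Mirg, which carries microRNAs towards the end of the maternal transcripts, was highest in the Tn5 series. There it was 26.7 to 34.8 CPM in the 3 libraries numbered 1 and 45.8 to 53.97 CPM in the 3 libraries numbered 2. The 8 libraries at 16 °C were close together, from 21.8 to 26.0 CPM, and all lay above the 8 libraries at 37 °C, which ranged from 7.96 to 18.0 CPM. Mirg was between 0.292 and 5.66 CPM in the 12 co-assay libraries and at 2.64 and 4.86 CPM in SET-seq of 10000 cells. The value of 47.8 CPM in 1 of the libraries of 10 cells rests on 9 counts.

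The 3 maternal RNAs did not keep a fixed proportion. Per length, Rian was 0.266 times Meg3 in the Tn5 series, 0.424 times at 300 ng of RNA, 0.330 times in SET-seq of 10000 cells and 3.17 times in the ligation-based libraries. In the temperature series the ratio went from 1.94 at 16 °C and 5 min to 0.626 at 30 min, and it lay between 0.771 and 0.997 at 37 °C. The co-assays had ratios of 1.35 with H3K4me3 and 1.42 with H3K27me3, and the KO libraries 1.21. Mirg per Meg3 was 3.12 in the Tn5 series, 4.17 at 16 °C, 2.23 at 37 °C, 1.02 in the ligation-based libraries and 0.556 in the KO libraries. These ratios of mean RPKM are descriptions over libraries with different chemistry.

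Dlk1, a transmembrane ligand related to Notch ligands, was the only one of the 6 genes whose highest condition mean was in a co-assay. In H3K27me3 libraries it was 10.5 and 11.1 CPM with 10000 cells and 6.62 and 7.26 CPM with 1000 cells. With 100 cells 1 library had 80 counts, 13.5 CPM, and the other had none. H3K4me3 libraries had 2.699 to 6.55 CPM. Ligation-based libraries had 2.13 and 2.30 CPM and the Tn5 series 0.673 to 1.78 CPM. In the temperature series Dlk1 reached at most 1.30 CPM, and 7 of 16 libraries had no count. At 37 °C and 5 min it had 0 counts in 1664714 counts over both libraries, which allows up to 1.80 CPM. The 15.3 CPM in 1 of the libraries of 1000 cells came from 3 counts.

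Rtl1, a retrotransposon-derived gene needed in the placenta, and Dio3, the deiodinase that inactivates thyroid hormone, varied widely between sets. Rtl1 was 4.67 to 6.93 CPM in the Tn5 series and 1.33 to 6.43 CPM in the temperature series. In the RNA series it was 4.09 and 4.12 CPM at 300 ng, 1.53 and 1.81 CPM at 3 ng, and 31.3 and 0 CPM at 30 pg. It was 9.50 and 7.19 CPM in SET-seq of 10000 cells, 1.28 and 0.503 CPM in the ligation-based libraries and 0 to 5.66 CPM in the co-assays. The KO libraries held 10.8, 9.62, 9.94 and 2.67 CPM. Dio3 was tightest in the Tn5 series, at 13.8 to 16.4 CPM, and was 3.29 to 13.8 CPM in the temperature series, 10.2 to 12.99 CPM at 300 ng and 3 ng, 23.0 and 0 CPM at 30 pg, and 4.98 and 3.52 CPM with ligation. It lay between 0 and 2.81 CPM in all 12 co-assay libraries and at 1.76 and 1.06 CPM in SET-seq of 10000 cells. None of the 12 co-assay libraries reached the lowest in vitro library with any count, at 3.29 CPM. Among the KO libraries, the first of KO1 lay above it, at 10.8 CPM.

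**Figure D2:**
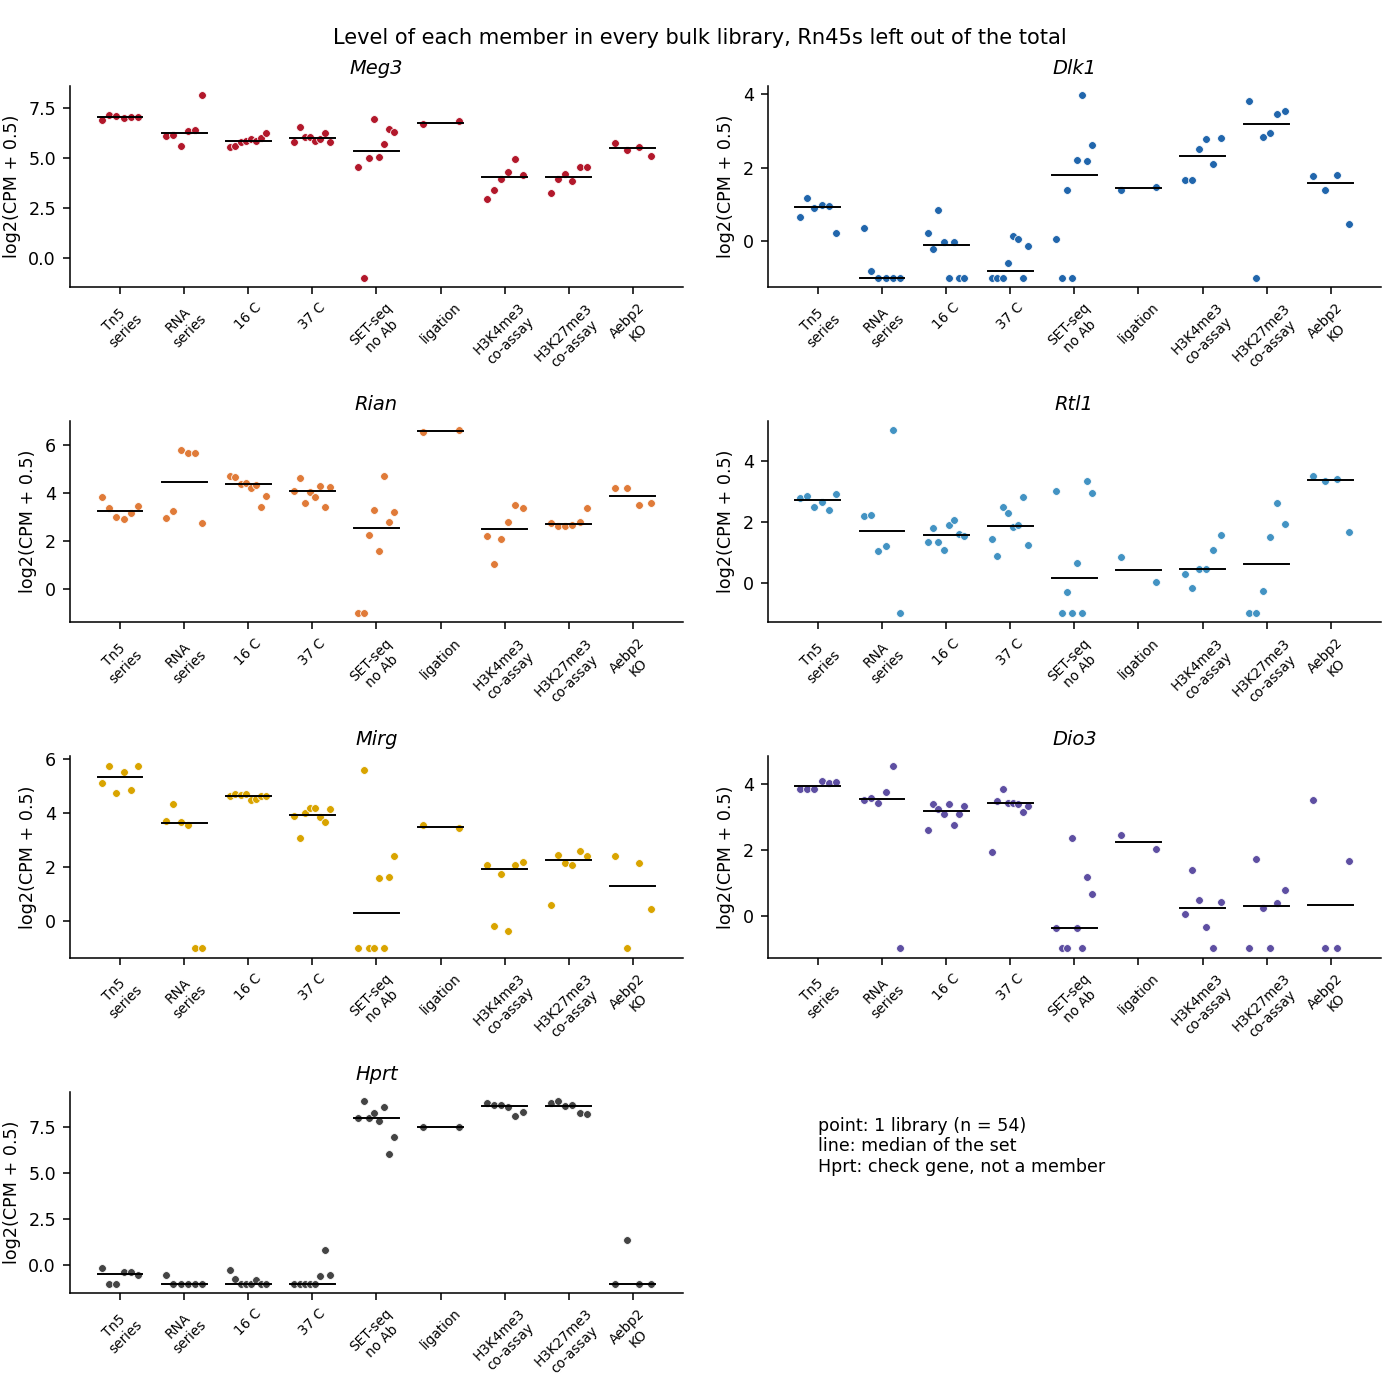
Each panel plots log2(CPM + 0.5) of a gene in all 54 bulk libraries by set, with a line at the median of the set, and Hprt below as a check gene. Meg3, Mirg and Dio3 are lower in the co-assays than in the Tn5 series, while Dlk1 is higher there in all but 1 of the 12 libraries, which had no count.

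The comparisons used edgeR's quasi-likelihood test over all genes that passed its filter on low counts, and a gene was called at a Benjamini-Hochberg adjusted p below 0.05. The p-values measure the spread between the libraries of a condition, which may be technical. Where a group pools conditions, as in the Tn5 series, the co-assays and the wider WT sets, that spread also holds differences between conditions. The same holds where time or cell number is a factor. The first question was whether tagmentation alters the genes. Between 37 °C and 16 °C, with time as a factor, 65.3% of all tested genes were called, and 1 of the 5 tested members was called. It was Mirg, which was 1.51-fold lower at 37 °C (log2 fold change -0.60, SE 0.11, adjusted p = 2.02e-05, edgeR), with no overlap between the 8 libraries at each temperature. Meg3 had a log2 fold change of 0.20 (adjusted p = 0.0700), Rtl1 0.46, Dio3 0.30 and Rian -0.14, none of them called. Dlk1 was not tested, with 7 counts at 37 °C and 26 at 16 °C. Leaving out single libraries kept the call of Mirg each time, while Meg3 was called without 3 of the 16, at log2 fold changes of 0.23 to 0.27. Rn45s was also higher at 37 °C, by 1.57 on the log2 scale.

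Sets made in vitro under like conditions were compared next. The pair at 37 °C and 5 min is shared by this comparison and the 3 after it, which are therefore not independent of each other. Between the Tn5 series and the libraries at 37 °C and 5 min, 29.3% of all genes were called, and all 5 tested members were called. Mirg was 3.67-fold higher in the Tn5 series (log2 fold change 1.87, SE 0.49, adjusted p = 0.0135), Rtl1 3.37-fold (1.75, SE 0.53, adjusted p = 0.0262), Dio3 2.26-fold (1.18, SE 0.38, adjusted p = 0.0374) and Meg3 1.79-fold (0.84, SE 0.21, adjusted p = 0.0112), all in edgeR. Rian was 2.08-fold lower (-1.06, SE 0.30, adjusted p = 0.0212, edgeR). The call of Rtl1 was lost with DESeq2 (adjusted p = 0.109) and with edgeR without a filter (adjusted p = 0.0501). Meg3 and Mirg thus moved in the opposite direction to Rian, which lies between them on the same strand. Of 3 tested fibroblast markers 2 were also called higher in the Tn5 series, Thy1 at 1.85 and Col1a1 at a fitted 7.52. The part of this difference in the results was not tested. Rtl1 passed the filter only outside the pair at 37 °C and 5 min, so its call is given as a description. That pair is shallow, with 54.9 and 91.5 CPM of Meg3 on 50 and 69 counts and 2 and 1 counts of Rtl1. Without its first library only Rian was still called, with 2253 genes called in all, and without its second library Dio3 and Meg3 were still called, with 1175. The same pair against 300 ng of RNA gave 6.66% of all genes and 0 of 5 members, with 837 genes called and 3131 at an unadjusted p below 0.05. The nearest was Rian, at -1.21 (SE 0.35, adjusted p = 0.0615, edgeR), and Meg3 was at 0.01 with a 95% interval of -0.52 to 0.53. Without the second 300 ng library 4 genes were called in all, and without the first Tn5 library at 25 ng/µl Rian was called. DESeq2 called Rian as well, at -1.25 (adjusted p = 0.0264).

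Ligation-based RNA-seq was set against the same in vitro pair, with 58.0% of all genes called. Of 5 tested members, 2 were called. Dlk1 passed the filter only through the ligation-based libraries, so its call is given as a description and not as a test. Rian was 4.00-fold higher with ligation (log2 fold change 2.00, SE 0.22, adjusted p = 4.97e-07, edgeR), at 90.9 and 96.6 CPM against 16.5 and 23.9 CPM. Dlk1, with 62 counts against 0, was at least 1.23-fold higher (adjusted p = 0.0469, edgeR), and was no longer called without either in vitro library or with DESeq2 (adjusted p = 0.117). Meg3, at 0.34 with a 95% interval of -0.03 to 0.72, Mirg at -0.30 and Dio3 at -0.87 were not called. Without the second library at 37 °C and 5 min Meg3 was called at 0.77, and without the first Dio3 was called at -1.48. Of the small nucleolar RNA genes within Rian, only AF357359 passed the filter. Its fitted log2 fold change of 7.17 depends on the prior count, so its call (adjusted p = 0.0469, edgeR) is not used. Hprt was 181 and 184 CPM with ligation and 0 in the in vitro pair.

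Cytoplasmic RNA from SET-seq of 10000 cells was set against the total RNA of the same in vitro pair, and 50.5% of all genes were called. Here 3 of 5 tested members were called. Dlk1 and Rtl1 passed the filter only through the SET-seq libraries, so their calls are given as a description and not as tests. Rtl1 was 5.10-fold higher in SET-seq (log2 fold change 2.35, SE 0.69, adjusted p = 0.0173, edgeR), with 88 counts against 3. Dlk1, with 50 counts against 0, was at least 2.66-fold higher (adjusted p = 0.0126, edgeR). Rian was 2.38-fold lower (-1.25, SE 0.39, adjusted p = 0.0229, edgeR). Mirg was at -1.45 (SE 0.56, adjusted p = 0.0535, edgeR), and was called with the size factors of DESeq2 (-1.52, adjusted p = 0.0337, edgeR) and with Rn45s left out of the fit (adjusted p = 0.0456, edgeR). Meg3 was at 0.35 with a 95% interval of -0.22 to 0.93. The call of Dlk1 was lost without the first in vitro library (adjusted p = 0.0510) and those of Rtl1 and Rian without the second (adjusted p = 0.0648 and 0.140), while Mirg was called without the second SET-seq library at -1.86. Dio3 was not tested, with 15 counts against 11, but its 1.76 and 1.06 CPM lay below the 3.29 and 10.6 CPM in vitro. The libraries also differed in Hprt, at 66.2 and 125 CPM against 0.

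The next comparison was between SET-seq with and without an antibody on the nuclei, within cell numbers of 100, 1000 and 10000. Of all genes 42.0% were called, and of 4 tested members only Meg3 was. Meg3 was 4.31-fold lower in the co-assays (log2 fold change -2.11, SE 0.23, adjusted p = 1.54e-07, edgeR). The 12 co-assay libraries ranged from 7.20 to 29.7 CPM, and the 6 libraries without antibody from 31.4 to 121 CPM, so the groups did not overlap. Meg3 stayed called without each of the 18 libraries, between -2.31 and -1.68. Dlk1 was at 0.69, Mirg at 0.92 and Rian at -0.29, with 95% intervals of -0.58 to 1.96, -0.53 to 2.36 and -1.15 to 0.56. Rtl1 and Dio3 did not pass the filter. Of 21 imprint regulators 14 were called, 8 higher and 6 lower. They included Dnmt3l, the cofactor of the de novo DNA methyltransferases, at -1.43, Dnmt3b, one of these enzymes, at -1.04, the PRC2 subunit Suz12 at 1.23 and the DNA demethylase Tet1 at 1.05. Of other imprinted genes 14 of 30 tested were called, 13 higher and 1 lower in the co-assays, with a median of 0.58 against 0.01 over all genes tested. Hprt was positive in both arms, and higher in the co-assays by 0.85 on the log2 scale.

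Between the H3K27me3 and H3K4me3 co-assays, within cell numbers, 0.00% of all genes were called by edgeR and none by DESeq2, with 344 and 371 genes at an unadjusted p below 0.05. Of 4 tested members 0 were called, each with an adjusted p of 0.997. Dlk1 was at 0.86 with a 95% interval of -0.51 to 2.23, Mirg at 0.70 (-0.69 to 2.09), Rian at 0.30 (-0.60 to 1.20) and Meg3 at 0.09 (-0.40 to 0.59). For Meg3 a change of 2-fold between the antibodies lies outside the interval, and for Dlk1, Mirg and Rian it does not.

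The KO comparison asked what loss of AEBP2 changes. Its main wild type (WT) was the H3K27me3 co-assay of 10000 cells, made with the same antibody. Aebp2 itself was 65.5 and 76.0 CPM in the WT, 15.7 and 15.0 CPM in KO1 and 49.7 and 30.2 CPM in KO2, and it was lower by 1.38 on the log2 scale (SE 0.22, adjusted p = 8.14e-06, edgeR). The counts cover the whole gene, so reads outside the cut site do not check the protein. The study itself examined the knockout cells by Western blot and by Sanger sequencing of the clones. KO and WT also differed in Hprt, at 0 to 2.14 against 310.3 and 291 CPM, and in Rn45s, which took 48.8% to 56.7% of KO counts and 21.9% and 23.4% of WT counts. In this comparison the genotype cannot be told apart from these differences.

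Of all genes, 56.0% were called between KO and WT, and 2 of the 4 tested members were called. Meg3 was 22.6 and 22.8 CPM in the WT, 53.0 and 41.7 CPM in KO1 and 46.7 and 33.8 CPM in KO2. Every KO library lay above both WT libraries, and Meg3 was 2.13-fold higher in KO (log2 fold change 1.09, SE 0.24, adjusted p = 0.000334, edgeR). Dlk1 was 10.5 and 11.1 CPM in the WT, 2.94 and 2.14 CPM in KO1 and 2.98 and 0.890 CPM in KO2. It was 4.32-fold lower in KO (-2.11, SE 0.57, adjusted p = 0.00277, edgeR), on 9 counts against 50. Dlk1 passed the filter only through the WT libraries, so its call is given as a description, and it was lost without the second WT library. Without that library 3559 genes were called in place of 5572.

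Rian and Rtl1 were not called. Rian was 6.46 and 9.91 CPM in the WT, 17.7 and 18.2 CPM in KO1 and 10.9 and 11.6 CPM in KO2, with no overlap between KO and WT (log2 fold change 0.86, SE 0.39, adjusted p = 0.0631, edgeR). Rtl1 was 5.66 and 3.30 CPM in the WT, and 3 of 4 KO libraries lay at 9.62 CPM or above (1.10, SE 0.57, adjusted p = 0.103, edgeR). Without the second KO2 library, at 2.67 CPM, Rtl1 was at 1.44. Rtl1 passed the filter only through the KO libraries, so its values are given as a description and not as a test. Dio3 and Mirg were not tested, with 14 counts against 5 and 10 counts against 23. The 11 counts of Dio3 in the first KO1 library, 10.8 CPM, stood beside 0 in the second.

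The direction of Meg3 depended on the WT libraries it was set against. Against all 6 H3K27me3 co-assay libraries, where 45.7% of genes were called, Meg3 was higher in KO by 1.45 on the log2 scale and Rian by 1.14, both called, and Dlk1 was at -1.81 (adjusted p = 0.133, edgeR). Against all 12 co-assay libraries, with 47.0% called, Meg3 was at 1.46, Rian at 1.22 and Rtl1 at 2.54, all called, while Dlk1 was at -1.47 (adjusted p = 0.141, edgeR). Against SET-seq of 10000 cells without antibody, with 65.4% called, Meg3 was instead lower in KO, at -1.01, and Rian was called at 0.84. These WT libraries all had Hprt.

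The in vitro libraries share the near absence of Hprt with the KO libraries but hold total RNA. Against 37 °C and 5 min, with 47.6% of genes called, Meg3 was lower in KO at -0.69, Mirg was lower at -2.11, and Rian was at -0.45 without a call. Against 300 ng of RNA, with 67.5% called, Meg3 was at -0.75, Mirg at -2.83 and Dio3 at -2.06, all called. Against the Tn5 series, with 64.1% called, the values were -1.63 for Meg3, -4.12 for Mirg and -2.47 for Dio3, all called. Rian was not called in these last comparisons, at 0.70 and 0.52, and Rtl1 was at 0.86 and 0.33. Wherever Mirg and Dio3 were tested against in vitro libraries, they passed the filter only through those libraries. Their calls are therefore given as a description and not as tests. For Dlk1, the KO range of 0.890 to 2.98 CPM overlapped the 0.673 to 1.78 CPM of the Tn5 series. The 300 ng libraries had at most 0.779 CPM of Dlk1, on 4 counts. The 4 KO libraries held 9 counts of Dlk1 in all, and their lowest value is 1 count, so no order is read from this.

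**Figure D3:**
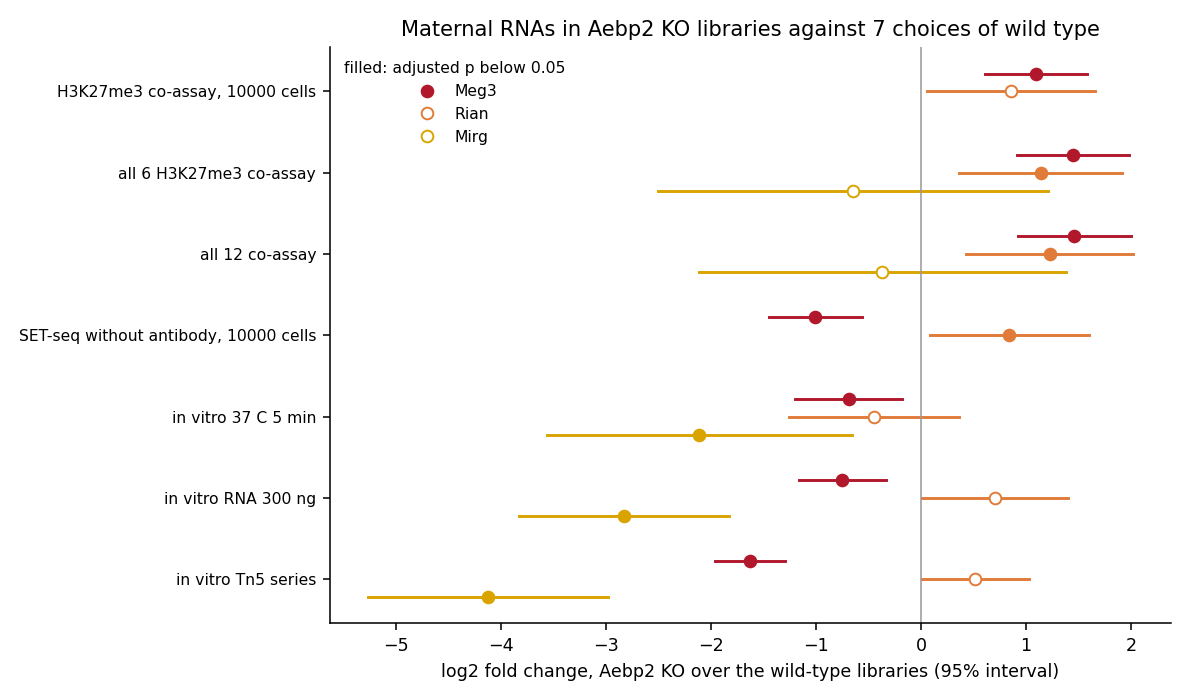
Log2 fold change of Meg3, Rian and Mirg in Aebp2 KO over 7 choices of wild-type libraries, with 95% intervals and filled points where called. Meg3 is above 0 against the 3 sets of co-assay libraries and below 0 against the other 4. Mirg is filled below 0 against the in vitro sets, where it passed the filter only through the in vitro libraries.

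Taken alone, KO1 differed from the WT in 57.5% of genes, with Dlk1 at -1.93, Meg3 at 1.20 and Rian at 1.16, all called. KO2 alone differed in 46.9% of genes, with Dlk1 at -2.28 and Meg3 at 1.03 called and Rian at 0.58 without a call. For each clone Dlk1 passed the filter only through the WT libraries, so its calls are a description. The clones share the WT libraries, so these values do not replicate each other. Set against each other, KO1 and KO2 differed in 11.0% of all genes, 1096 by edgeR and 586 by DESeq2, and 0 of 4 members were called. The 95% interval of Meg3 was -0.41 to 0.72 and that of Rian -0.40 to 1.55, and those of Dlk1 (-1.81 to 2.49) and Rtl1 (-0.75 to 2.02) were wider. Aebp2 was lower in KO1 than in KO2 (-1.46, SE 0.34, adjusted p = 0.00584, edgeR).

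Lists of genes in and beyond the locus are given beside the 56.0% of all genes called between KO and WT. Of 8 tested neighbours of the locus, 3 were called, all higher, and they were Dync1h1, a dynein heavy chain, at 1.98, the chaperone Hsp90aa1 at 1.27 and the transcription factor Yy1 at 0.35. The median of the neighbours was 0.13 against -0.05 over all genes tested. Of 20 tested imprint regulators 18 were called, 14 higher and 4 lower (the knocked-out Aebp2 among the lower), with a median of 0.57. They were led by the DNA demethylase Tet3 at -3.41 and by the de novo methyltransferase genes Dnmt3a at 3.13 and Dnmt3b at 1.76 and their cofactor Dnmt3l at 3.08. Of 26 tested imprinted genes outside the locus 19 were called, 8 higher and 11 lower, with a median of -0.34. Mest was at -4.00, Nnat at -3.66, H19 at -3.47 and Plagl1 at -1.64. No microRNA gene of the locus could be tested. Among ES cell markers Zfp42 was lower, at -0.74, and Nanog at -0.64, and the other 3 were not called.

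**Figure D4:**
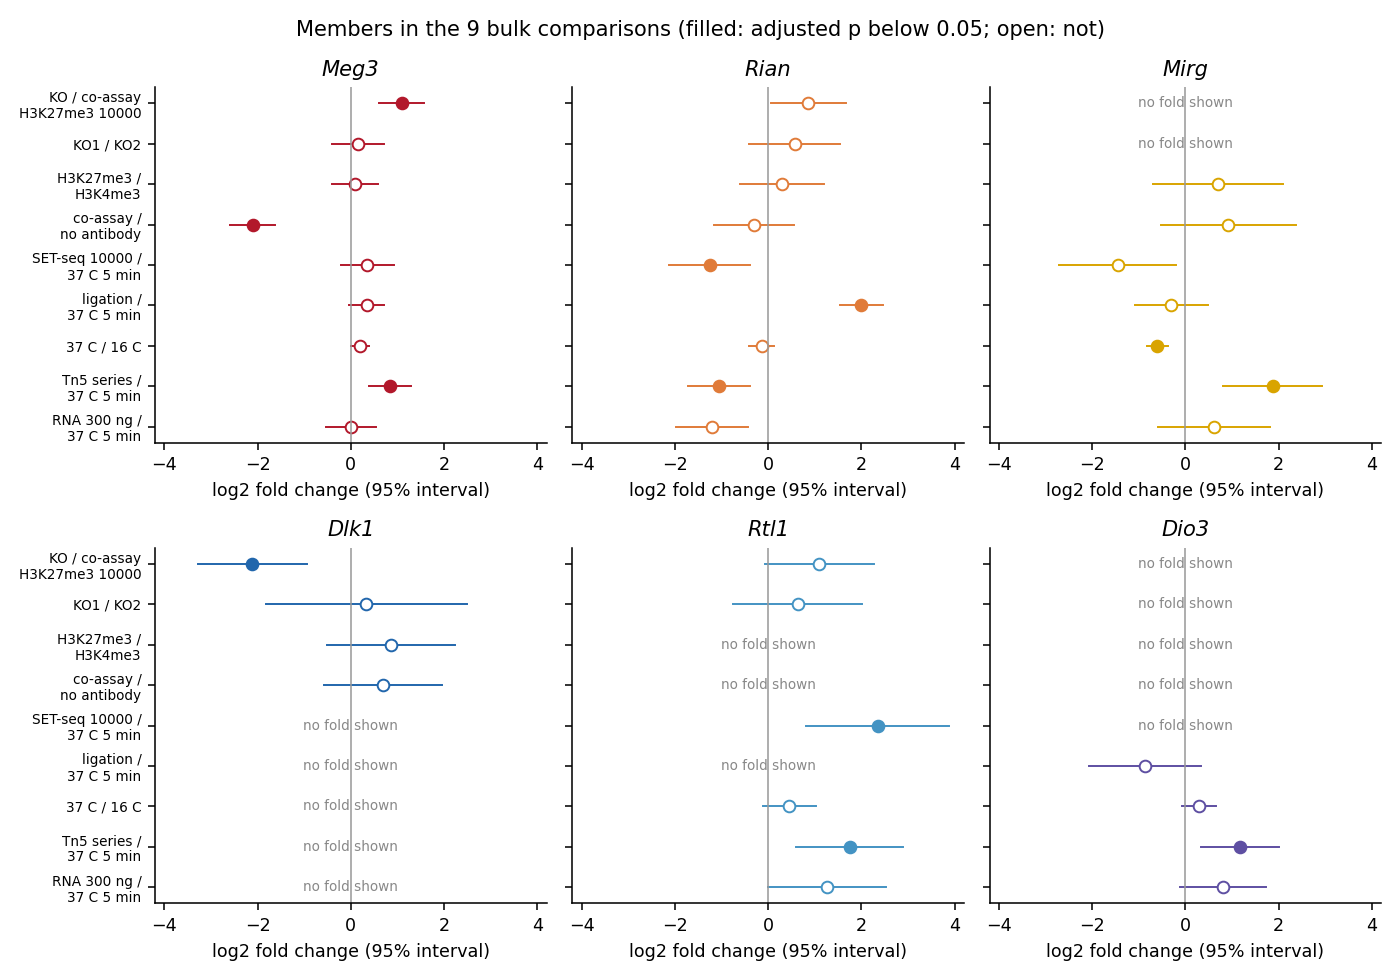
Log2 fold change with 95% interval of each gene in the 9 bulk comparisons, filled where the adjusted p was below 0.05, and with no fold where a gene was not tested or a group had 0 counts. Meg3 is lowest in the co-assays against SET-seq without antibody, at -2.11, and Rian is highest with ligation, at 2.00.

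In the single cells, the genes of the locus were read in few cells. The tables held 752 cells, of which 545 passed the study's filter of more than 1000 and fewer than 5000 genes, 335 from H3K27me3 and 210 from H3K4me3 experiments. A passing cell had a median of 133760 counts and 2208 genes. Counts are reads without molecular identifiers, so a high count in a cell can be copies of few molecules, and intervals cover counting error only. Doublets were not called, since cells were picked one by one into wells. The 16 experiments shared 96 barcodes, 80 of them used in 2 or more experiments, and each barcode occurred once per experiment. Hprt had reads in 30.1% of the cells, 66 of 335 (19.7%) with H3K27me3 and 98 of 210 (46.7%) with H3K4me3.

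Meg3 had reads in 44 of 545 cells, or 8.07% (95% exact binomial interval 5.93 to 10.7). Dlk1 had reads in 41 cells (7.52%), Rian in 40 (7.34%), Rtl1 in 16 (2.94%), Mirg in 7 (1.28%) and Dio3 in 4 (0.734%). Most of these cells held a single read, 25 of 44 for Meg3, 26 of 41 for Dlk1 and 30 of 40 for Rian. A few cells held most of the reads. Of 2697 Meg3 reads, 1488 came from 1 cell and 1049 from another. Likewise 1 cell held 910 of 1375 Dlk1 reads, 1 held 1052 of 1311 Rtl1 reads, 1 held 293 of 373 Rian reads and 1 held 118 of 124 Dio3 reads. Mirg had 9 reads in all. Dio3 has no row in the H3K27me3 table, and 0 of 335 cells allows a share of up to 0.896%.

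Any of the 6 genes was read in 132 cells, or 24.2%, and only 18 cells had reads of 2 or more. A maternal RNA was read in 84 cells and a paternal gene in 61, with 13 cells in both groups. Meg3 and Rian, neighbours on the same strand, were read together in 6 cells, and Meg3 and Dlk1 in 4. At this depth a cell without reads cannot be called a cell without the RNA.

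Meg3 was read in 34 of 335 H3K27me3 cells (10.1%) and in 10 of 210 H3K4me3 cells (4.76%). The share of cells with Hprt went the other way between the marks, and the part of this in the result was not tested. Summed over cells, Meg3 reached 138 CPM in H3K27me3 experiment 10 and 105 CPM in experiment 3, which hold the 2 cells with the most reads, and at most 20.5 CPM in the other 14 experiments. Dlk1 was read most often in H3K27me3 experiment 8, in 11 of 62 cells with 14 reads in all. Experiments differed in depth, with medians of 9861 to 1533610 counts per cell, and their order is not read here.

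**Figure D5:**
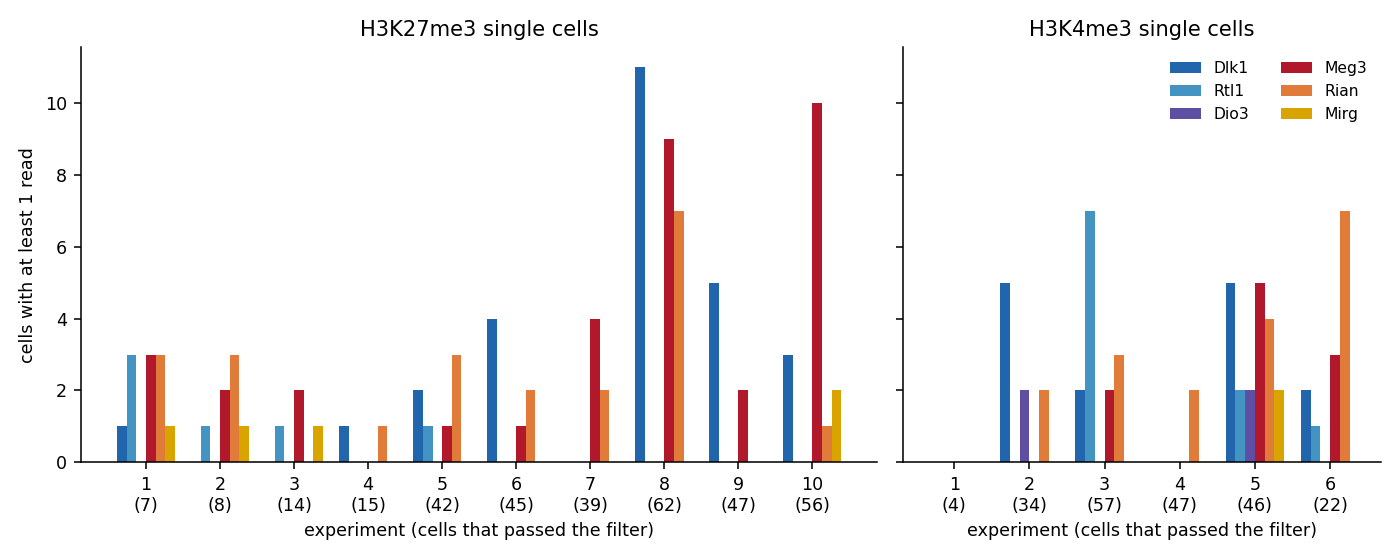
Number of passing cells with at least 1 read of each gene, by experiment, for H3K27me3 (left) and H3K4me3 (right), with the number of passing cells in brackets. Dlk1, Meg3 and Rian account for most positive cells, and no gene exceeds the 11 cells of Dlk1 in H3K27me3 experiment 8.

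The bead experiments compared daughter cells proximal and distal to the Wnt3a source. Sums per position were made in the 14 experiments with at least 3 cells at both positions. Of all 4885 genes tested 0.00% were called by edgeR, with 180 at an unadjusted p below 0.05, while DESeq2 called 28 and limma none. None of the 6 genes passed the filter on low counts. Their reads were 955 proximal and 420 distal for Dlk1, 1064 and 244 for Rtl1, 121 and 3 for Dio3, 2662 and 23 for Meg3, 28 and 340 for Rian and 5 and 3 for Mirg. Since 1 or 2 cells decide each of the first 5 splits, they say nothing of the position.

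The study's clusters, Dista with 121 cells, Mix with 291 and Proxi with 133, were built from the expression of these cells, so the shares are a description. Meg3 was read in 6.61% of Dista, 9.28% of Mix and 6.77% of Proxi cells. Dlk1 was read in 7.44%, 7.90% and 6.77%, and Rian in 10.7%, 6.19% and 6.77%. With both marks together, Rtl1, Mirg and Dio3 were each read in less than 5% of the cells of every cluster, and Dio3 in 0 of 291 Mix cells, which allows up to 1.03%. The study named Rtl1 among the cluster marker genes that it followed along pseudotime. Here Rtl1 was read in 3.31% of Dista, 2.06% of Mix and 4.51% of Proxi cells. Its reads were 232, 15 and 1064, and 1 Proxi cell held 1052 of them. Depth differed as well, with median counts per cell of 80430, 177043 and 115675, and no order is read from the shares.

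Across the 27 bulk condition means, each gene had other genes with a more similar pattern than its neighbours in the locus. The measure was Pearson's r of log2(CPM + 0.5) over 12742 genes, given as a description since the conditions share chemistry, depth and Hprt status. Meg3 was closest to Col5a1, a collagen (0.888), Rab24 (0.887) and Plod3, a collagen-modifying enzyme (0.884). Rian was closest to the Wnt co-receptor Lrp6 (0.908), Copg2 (0.907) and Pip4k2b (0.900). Mirg was closest to Tmem250-ps (0.902), Pacsin1 (0.894) and Klc3 (0.892). Dio3 was closest to Arpc1b (0.941), Ephb4 (0.940) and Tkt (0.939). Dlk1 was closest to Fam43b (0.913), Wscd1 (0.901) and Gnat1 (0.896), and Rtl1 to Tns2 (0.812), Slc6a16 (0.779) and Rhobtb1 (0.760).

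Within the locus the highest value was between Meg3 and Dio3 (0.764), followed by Meg3 and Rian (0.609), and the lowest between Dlk1 and Dio3 (-0.711). Against Hprt, r was 0.744 for Dlk1, -0.870 for Dio3, -0.672 for Meg3, -0.580 for Rtl1, -0.507 for Mirg and -0.467 for Rian.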

How the data were processed

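The values are read counts per gene that the authors deposited. Per the labels, the methods and the file headers, reads were trimmed with Trim Galore 0.6.4, aligned to mm9 with STAR 2.5.4b and counted over refGene exons with featureCounts 2.0.0 (2.0.1 for KO libraries), without strand and without ambiguous or multi-mapped reads. Counts of single cells came from zUMIs over exons and introns. Position and cluster of each cell were taken from the study's supplementary cell annotation. From these counts, CPM and RPKM without Rn45s were computed in Python 3.11.15, and edgeR 4.0.16 (TMM, filterByExpr with a minimum count of 10, quasi-likelihood test, R 4.3.3) gave the comparisons, with Benjamini-Hochberg adjustment over all genes tested. DESeq2 1.42.0, limma 3.58.1, no filter, Rn45s removed before fitting, other size factors, a replicate block, the study's own rule and leaving out each library were alternatives. The study's rule asked for p below 0.05 before adjustment and for more than 1 on the log2 scale in either direction. The fits were tested on simulated data. Named genes were the 6 members, at most 4 called genes per list by absolute log2 fold change, the checks Aebp2, Hprt and Rn45s, and the 3 genes most alike in pattern. The members and lists were chosen with earlier results of these data known. Total counts of 235040 to 21520982 set the precision, and the floor for a count of 0 was 3 counts. Depth and floors cover counting error only. Replicates deviated from each other by more than sampling noise in each pair.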

Additional observations from a re-analysis of the deposited data

Results flagged for a closer look

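Of 17 groups of 4 to 10 values examined for the 6 genes, 7 held a value far from the others by Dixon's ratio. The limit of this ratio assumes normally spread values. Many sums per experiment were 0 or rested on 1 cell, so no number of groups expected by chance can be given. In the KO libraries, Rtl1 was 2.67 CPM in the second KO2 library, and the nearest of the other 3 was at 9.62 CPM. The other 6 lay in the single cells, in sums per experiment. Among H3K4me3 experiments, Dlk1 reached 42.6 CPM in experiment 2, with the next at 4.18 CPM, and Dio3 reached 13.2 CPM in the same experiment, with the next at 1.39 CPM. Rtl1 reached 22.3 CPM in H3K4me3 experiment 3, with the next at 1.67 CPM. Meg3 was 12.6 CPM in H3K4me3 experiment 5, with the next at 1.95 CPM, and Mirg was 0.558 CPM there, from 2 reads in 2 cells, and 0 in the other 5. Among H3K27me3 experiments, Rtl1 was 101 CPM in experiment 1, with the next at 1.37 CPM. The 5 single-cell values of Dlk1, Dio3, Meg3 and Rtl1 each rested mainly on 1 cell, as described for the reads per cell.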

How the results depend on the processing

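Of 271 values of the 6 genes under settings other than leaving out a library, 237 kept direction and side of the threshold, 14 were lost, 11 were gained and 9 changed sign. Leaving out single libraries gave 381 values, of which 343 kept both, 15 were lost, 8 were gained and 15 changed sign. What caused each change was not tested.

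The study's rule changed the counts of called genes to 695 between the clones, 3017 for KO against WT, 27 for H3K27me3 against H3K4me3, 1371 for co-assay against no antibody, 4721 for ligation, 967 for 37 °C against 16 °C, 1406 for 300 ng of RNA and 179 for proximal against distal cells. DESeq2 gave 586 between the clones, 1346 for 300 ng and 28 for the cells. Without a filter, 2969 genes were called for SET-seq against in vitro and 24 for the cells. The cells gave 55 without the replicate block of experiments.

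Changes of sign concerned KO against other WT libraries, with Rtl1 at -0.16 and Meg3 at -1.01 against SET-seq without antibody, Meg3 at -0.69 and Rian at -0.45 against 37 °C and 5 min, and Meg3 at -1.63 against the Tn5 series and -0.75 against 300 ng. Meg3 at 300 ng was -0.029 with DESeq2, -0.036 with its size factors and -0.0026 without Rn45s in the fit. DESeq2 and fitting without a filter lost Rtl1 (adjusted p = 0.111 and 0.0690) and Rian (0.0737 and 0.0671) in SET-seq against in vitro, with Dlk1 at 0.0563 without a filter. They also lost Rtl1 in the Tn5 series (0.109 and 0.0501) and Dlk1 with ligation (0.117 and 0.0808).

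The median of the 27 condition means, which differs from the median over 54 libraries, was 3.11 CPM for Rtl1, 6.95 for Dio3, 59.8 for Meg3, 11.7 for Rian and 11.1 for Mirg. With Rn45s in the total, it became 2.17 CPM for Rtl1, 4.06 for Dio3, 40.9 for Meg3, 8.71 for Rian and 7.33 for Mirg. With TMM it was 2.19, 4.74, 42.2, 8.53 and 7.61. Within marks, the share of Dista cells of H3K27me3 was 2.90% for Dlk1 and 0% for Mirg, and that of Mix cells of H3K4me3 was 3.61% for Dlk1, 2.41% for Meg3 and 0% for Mirg. Dlk1 was read in 13.5% of Dista cells of H3K4me3, Rtl1 in 5.77% of Dista and 5.33% of Proxi cells of H3K4me3, and Rian in 3.45% of Proxi cells of H3K27me3.

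Leaving out 1 library gave 3559 to 5827 called genes for KO against WT, 215 to 1670 between the clones, 1175 to 3739 for the Tn5 series and 4 to 861 for 300 ng. Between the clones, Dlk1 was -0.29 to 1.34, Rtl1 -0.035 to 1.79 and Meg3 -0.052 to 0.37. Between the antibodies, Dlk1 was -0.036 to 1.12 and Meg3 -0.066 to 0.22. Rian in co-assays was -0.58 to 0.038, Dio3 and Mirg with ligation were -1.48 to 0.18 and -0.57 to 0.29, and Meg3 at 300 ng was -0.29 to 0.45.

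Libraries with the same replicate number did not deviate together in every pair (correlations of -0.07 to 0.01 for KO against WT, -0.06 to 0.38 for the temperature series and -0.13 to 0.81 among the Tn5, 300 ng and 37 °C libraries). With the replicate number as a block, 1519 genes were called at 300 ng, Dlk1 with ligation was no longer called (adjusted p = 0.0806, edgeR), Rian at 300 ng was called (adjusted p = 0.0486, edgeR), and no other call of the 6 genes changed.

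As for depth, 1 count was worth 1.33 CPM in the shallower library at 37 °C and 5 min and 5.31 CPM in the shallowest SET-seq library.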
